A study of Mus musculus with 6 samples.

Results

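The TAM receptors Mertk, Axl and Tyro3 and the bridging ligands Gas6, Pros1 and Mfge8 were examined in mouse microglia that had been cultured with neutrophils carrying or lacking Cd177. These 6 genes were taken by name, each matching 1 row among the 55335 gene identifiers of the deposited expression table. The family was selected on the FPKM values of this same comparison, since it was proposed with those results in view, so the values of its members are given as a description and carry no test. The microglia were primary cells from newborn C57BL/6 brains, detached from glial cultures by shaking on day 14, with a WT genotype in every library. They were cultured for 24 h with neutrophils that had been magnetically sorted from injured spinal cords 3 days after spinal cord injury, either from Cd177 WT mice (3 libraries, the WT arm) or from Cd177 KO mice (3 libraries, the KO arm), and were then recovered by flow sorting as Ly6G- cells. No library of microglia cultured alone was used here, so each value is a comparison between the neutrophil genotypes and not with unexposed cells. Separate cultures or animals within an arm are not stated in the labels, so any p-value measures the spread between these libraries, which may be technical.

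TAM receptors are receptor tyrosine kinases of macrophages, microglia and other phagocytes. Gas6 and protein S (Pros1) are vitamin K-dependent secreted proteins that bind phosphatidylserine on dying cells at one end and a TAM receptor at the other. Mfge8 also binds phosphatidylserine but is recognised by integrins, chiefly alpha-v beta-3 and alpha-v beta-5. In phagocytes these proteins are known for the uptake of apoptotic cells, neutrophils included, and for restraint of cytokine signalling through Socs proteins.

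Before the family was compared, the libraries were checked. Values are FPKM, fragments per kilobase of transcript scaled to the mapped fragments of the library, a scale on which the levels of different genes can be set side by side. The depth inferred from the smallest steps between low values was 15570000 to 19230000 fragments per library. Cd177 itself had 0.477, 0.113 and 0.151 FPKM in the WT arm and 0.109, 0.0217 and 0.0845 FPKM in the KO arm (exact two-sided permutation test, p = 0.1, the smallest that 3 against 3 allows). Among 12 markers shared by macrophages, 12 had a mean of at least 1 FPKM, with a summed level of 2152 to 2232 FPKM in the WT and 1971 to 2024 FPKM in the KO arm. These markers did not move together: 6 of them, such as Cd68 and Csf1r, were higher in every KO than in every WT library, 3 were lower and 3 overlapped, and the lower sum came mainly from Cd14, which had 468 to 482 FPKM in the WT and 135 to 138 FPKM in the KO arm. Of 10 markers of microglial identity 2 reached that mean, Cx3cr1 among them. Sall1 and Fcrls were listed at 0 in every library, and P2ry12 and Siglech stayed at or under 0.148 FPKM, so the label of microglia rests here mainly on shared macrophage genes. Of 12 neutrophil markers 0 reached 1 FPKM and 6 were listed at 0 throughout, Ly6g, S100a9 and Mpo among them. The list summed to 1.82 to 2.02 FPKM in the WT and 0.769 to 1.19 FPKM in the KO arm. Of these 12, 3 were lower in every KO than in every WT library, 0 were higher and 9 overlapped. The 8 astrocyte markers summed to at most 0.265 FPKM in any library, the 6 fibroblast and mural markers to at most 0.0324 FPKM, and the 5 neuronal markers were listed at 0. The oligodendrocyte markers summed to 0.355 to 0.512 FPKM over both arms. Of 5 endothelial markers Flt1 alone exceeded 1 FPKM, Cldn5 was at 0, and the list summed to 9.62 to 10.4 FPKM in the WT and 7.69 to 7.88 FPKM in the KO arm. Flt1 was lower in every KO than in every WT library, 1 marker, Kdr, was higher and 3 overlapped.

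The members occupied very different levels. Mfge8 was abundant, Mertk was low but clearly present, Axl was near the limit of detection, Pros1 was at or under about 1 fragment per library, and Tyro3 and Gas6 were listed at 0 in all 6 libraries. Between the arms, Mertk was 4.22-fold higher with KO neutrophils, whereas the values of Mfge8 and of Axl overlapped. Only Mertk and Mfge8 reached a mean of 1 FPKM over the 6 libraries, the minimum for the fit, and Mertk did so through the KO arm alone, 1 of 162 tested genes whose WT mean was under 1 FPKM and whose KO mean was not. The arms did not overlap for 1 of these 2 members, Mertk, beside 55.8% of all 11395 genes tested (31.3% higher and 24.6% lower with KO). Nothing is read from this count, since the same comparison chose the members.

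**Figure D1:**
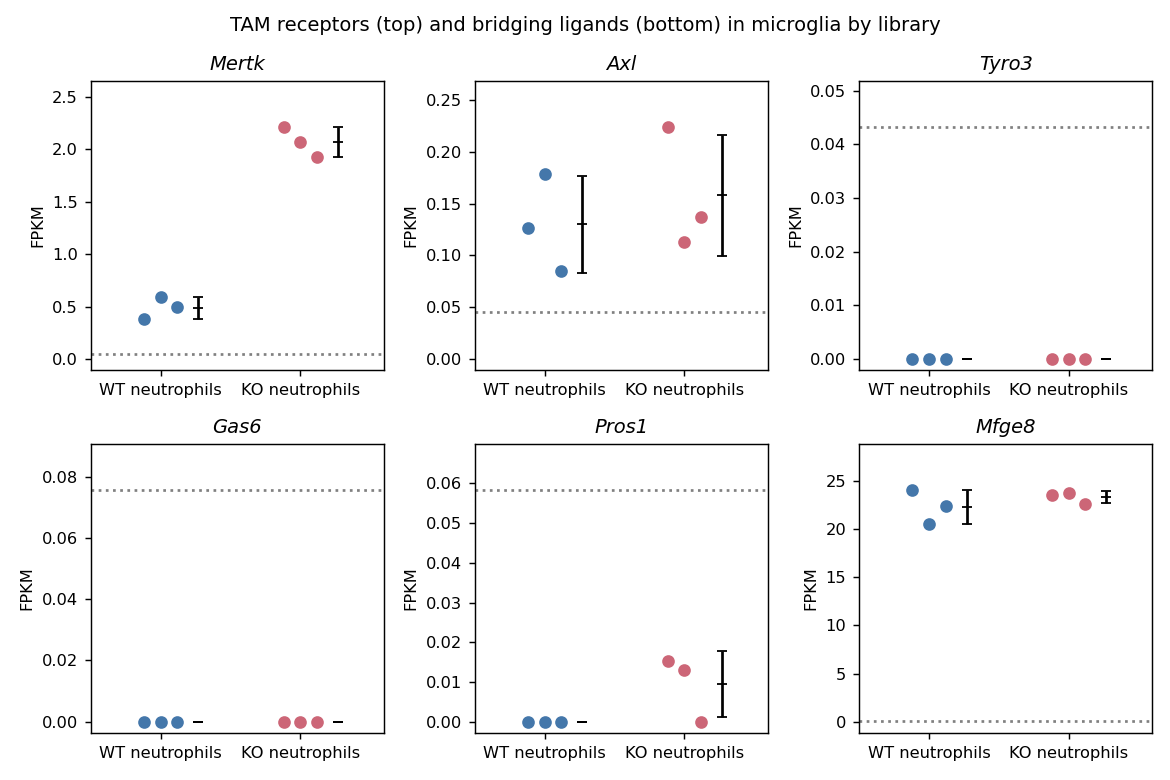
FPKM of each member in the 3 WT (blue) and 3 KO (red) libraries, with the mean and SD as a black bar and the level of 3 fragments as a dotted line; each panel has its own linear axis. The Mertk values of 1.93 to 2.21 FPKM in the KO arm all lie above those of 0.381 to 0.591 FPKM in the WT arm, the Mfge8 and Axl values overlap, and Tyro3, Gas6 and Pros1 lie under the line.

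The promoters of the 2 members that passed the filter and of Gas6, a ligand listed at 0, are shown to place these transcripts in the genome. Each is the 250 bases before the RefSeq start on build GRCm38.p6, from 5' to 3' on the strand of the gene, with matches to 6 short motifs in capitals.
Mertk, chr2:128698665-128698914, plus strand: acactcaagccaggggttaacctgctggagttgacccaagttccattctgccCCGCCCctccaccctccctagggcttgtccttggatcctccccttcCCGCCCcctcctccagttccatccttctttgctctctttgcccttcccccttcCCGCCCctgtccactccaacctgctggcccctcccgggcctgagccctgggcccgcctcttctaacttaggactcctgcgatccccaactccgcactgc
Mfge8, chr7:79149061-79149310, minus strand: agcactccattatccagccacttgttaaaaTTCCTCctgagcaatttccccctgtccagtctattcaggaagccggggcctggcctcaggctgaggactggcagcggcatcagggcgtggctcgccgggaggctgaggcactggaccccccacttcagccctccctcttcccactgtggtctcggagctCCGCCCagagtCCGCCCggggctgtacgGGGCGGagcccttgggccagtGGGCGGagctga
Gas6, chr8:13494536-13494785, minus strand: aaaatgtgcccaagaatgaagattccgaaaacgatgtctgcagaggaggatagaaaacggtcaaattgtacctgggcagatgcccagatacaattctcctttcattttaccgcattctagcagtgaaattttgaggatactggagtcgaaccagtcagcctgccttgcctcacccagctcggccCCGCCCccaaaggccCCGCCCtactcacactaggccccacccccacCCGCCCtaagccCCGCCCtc

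The motifs were chosen after the expression values had been seen and were searched on both strands. They were a nuclear receptor motif (AGGTCA), a Maf motif (TGCTGA), an AP-1 site (TGANTCA), a PU.1 core (GAGGAA), a GC box (GGGCGG) and a TATA box (TATAAA). Each of the 6 members had a promoter entry. The GC box, bound by Sp1-type factors, occurred 3 times before Mertk, 4 times before Mfge8 and 4 times before Gas6, and at least once before Axl, Tyro3 and Pros1, while 32.7% of 32851 mouse promoter windows of this length hold it. The Tyro3 window (chromosome 2, 119799264 to 119799513) precedes its RefSeq start but lies within the gene span given below, which comes from another annotation. The PU.1 core, named after a myeloid transcription factor, was found before Mfge8 and before Axl (23.3% of all windows). The nuclear receptor motif (14.0% of windows), the Maf motif (16.1%), the AP-1 site (6.75%) and the TATA box (12.4%) had 0 matches in the 6 windows. GC content was 63.6% before Mertk, 65.2% before Mfge8 and 54.8% before Gas6, against a median of 52.4% over all windows. A match is a string of letters and not a measured binding site.

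Mertk, the TAM receptor most closely tied to the clearance of apoptotic cells by macrophages (chromosome 2, 128698956 to 128802894, GRCm38), had 0.381, 0.591 and 0.499 FPKM with WT neutrophils. The corresponding values with KO neutrophils were 2.21, 2.07 and 1.93 FPKM. Every KO library was thus above every WT library. By transcript length and inferred depth the WT values stand for about 27.7 to 39.6 fragments per library and the KO values for about 151 to 167, well above the 3 fragments taken as the limit of detection. The means were 0.490 ± 0.105 and 2.07 ± 0.1396 FPKM (SD, n = 3 each). The fitted log2 change was 1.04 with an SE of 0.0820 on the log2(FPKM + 1) scale, which understates the change of so low a gene. With a pseudocount of 0.1 it was 1.89. No test is given for this change.

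Besides the shared macrophage, neutrophil and endothelial markers above, 2 more marker lists had sums that did not overlap between the arms. The 10 markers of microglial identity summed to 143 to 147.3 FPKM in the WT and 154.4 to 161.6 FPKM in the KO arm, and Tmem119 had 0.204 to 0.397 and 0.667 to 0.794 FPKM. Of these 10, 3 were higher in every KO than in every WT library, 1, Cx3cr1, was lower and 6 overlapped. The 5 markers of border macrophages and monocytes (0 of 5 at 1 FPKM) summed to 0.00929 to 0.0518 FPKM in the WT and 0.195 to 0.262 FPKM in the KO arm. Among these, Mrc1 reached at most 0.167 FPKM, and Cd163 and Ly6c2 were at 0 throughout. The part of such cells, of the lower summed neutrophil and endothelial markers and of the other marker lists in the Mertk values was not tested. In bulk RNA a larger share of cells carrying a transcript and more RNA per cell cannot be told apart.

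Axl, the TAM receptor for which Gas6 is the main ligand (chromosome 7, 25757273 to 25788705), had 0.127, 0.178 and 0.0852 FPKM in the WT arm, and in the KO arm 0.223, 0.113 and 0.137 FPKM. The arms overlapped, with the highest KO library above all others and the lowest WT library below all others. These values stand for about 5.78 to 15.2 fragments per library on the longest of its 3 annotated coding transcripts, so a change of modest size was not detectable at this depth. The means were 0.130 ± 0.0466 and 0.158 ± 0.0581 FPKM (SD, n = 3 each), a difference smaller than either SD.

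Tyro3 (chromosome 2, 119797733 to 119818104), the TAM receptor best known from the nervous system, was listed at 0 in each library. A count of 0 allows a level up to 0.0432 FPKM in the library with the least depth, for 3 fragments on its longest coding transcript. None of 20 ubiquitous genes that were looked up was listed at 0. Mertk therefore made up 75% to 85.4% of the summed TAM receptor level in the WT libraries and 90.8% to 94.8% in the KO libraries. The order of the receptors was Mertk, then Axl, then Tyro3 in each of the 6 libraries.

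Neither TAM ligand was found above the limit of detection. Gas6 (chromosome 8, 13465374 to 13494490) was listed at 0 in the 6 libraries, for which the limit was 0.0756 FPKM. It was the only member with an exon overlapping that of another gene, Tmem255b on the opposite strand, which was also listed at 0. Pros1 (chromosome 16, 62854307 to 62929346) was listed at 0 in the WT arm. In the KO arm it had 0.0154, 0.0130 and 0 FPKM, about 0.808 of a fragment in each of the 2 libraries above 0. The limit of 3 fragments was 0.0583 FPKM, so no fold was formed. Protein supplied by serum, by the neutrophils or by other cells is not measured by these libraries.

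Mfge8, the integrin-binding bridge (chromosome 7, 79133768 to 79149060), was by far the most abundant member. It had 24.1, 20.5 and 22.4 FPKM with WT neutrophils and 23.6, 23.8 and 22.6 FPKM with KO neutrophils. The arms overlapped, since the highest and the lowest values were both WT libraries. The means were 22.3 ± 1.78 and 23.3 ± 0.601 FPKM (SD, n = 3 each), with a fitted log2 change of 0.06 (SE 0.0586). The level exceeded that of 80.5% of the genes tested in the WT and 81.4% in the KO arm. The ratio of Mfge8 to Mertk within a library was 34.7 to 63.2 in the WT and 10.7 to 11.7 in the KO arm.

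**Figure D2:**
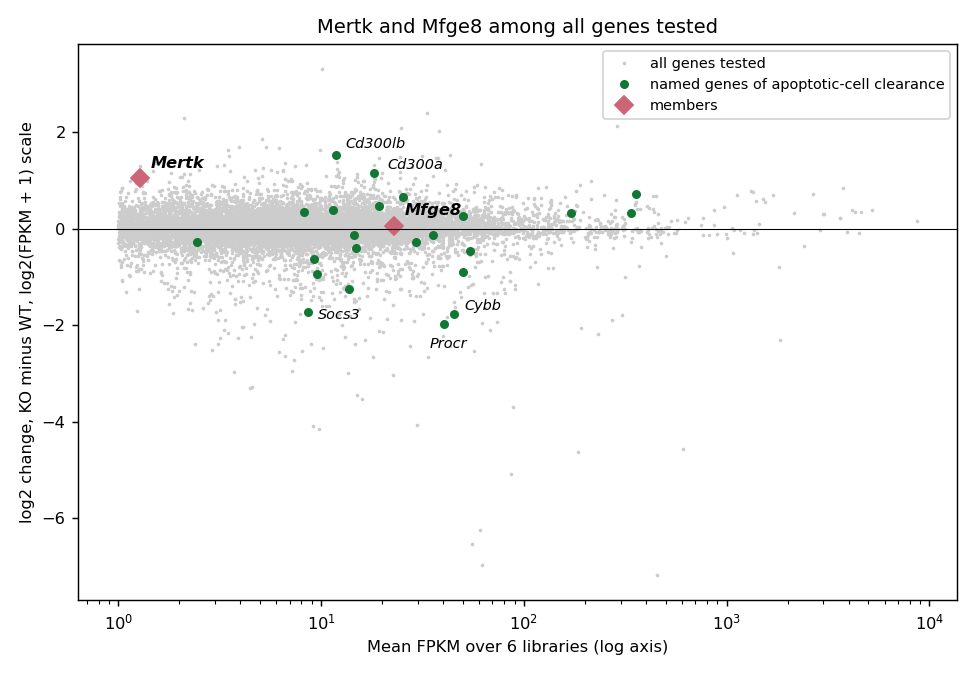
Fitted log2 change, KO minus WT, against mean FPKM over the 6 libraries (log axis) for the 11395 genes tested (grey), with Mertk and Mfge8 as red diamonds and 23 named genes of apoptotic-cell clearance in green. Mertk sits at the low end of expression with a change of 1.04, Mfge8 lies at 0.06, and Procr, Cybb and Socs3 are the lowest of the green points.

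To describe what surrounded the family, 94 other genes of apoptotic-cell clearance in 9 lists were read from the same fit over all genes (limma with Benjamini-Hochberg adjustment). Of the 73 that were tested, 21 rose and 24 fell at an adjusted p under 0.05 (61.6%, beside 43.3% of all genes tested, 24.5% higher and 18.8% lower), and 28 did not pass. Their median log2 change was -0.01, against 0.02 for all genes tested. The remaining 21 had a mean under 1 FPKM, and 9 of these were listed at 0 in every library. On the deposited scale 43.4% of the 4930 calls over all genes were lower. After rescaling to a common sum 54.9% of 4842 calls were lower, and the lists gave 20 higher and 24 lower. Nothing is read from the share of 61.6% beside 43.3%, since the lists were chosen with earlier results of these data known.

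Among 17 other receptors for apoptotic cells, 10 were tested, of which 6 rose, 3 fell and 1 did not pass. The largest rises were in the CD300 family of phosphatidylserine-binding receptors. Cd300lb, an activating member, rose from 5.67 ± 0.560 to 18.0 ± 0.1201 FPKM (log2 change 1.52, SE 0.0645, limma adjusted p = 1.02e-05). Cd300a, an inhibitory member, rose from 10.9 ± 0.471 to 25.7 ± 0.854 FPKM (log2 change 1.16, limma adjusted p = 5.83e-06). Cd300lf, another member of that family, moved the other way, from 9.93 ± 0.308 to 7.42 ± 0.232 FPKM (log2 change -0.38, limma adjusted p = 0.000700; SD, n = 3 each, here and for the genes that follow).

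Smaller rises were seen for the scavenger receptor Cd36 (log2 change 0.58), for Havcr2, also called Tim-3 (0.39), and for Lrp1 (0.26), a large endocytic receptor that binds calreticulin. Stab1, a phosphatidylserine-binding scavenger receptor, fell from 3.65 ± 0.0618 to 2.102 ± 0.181 FPKM. The classical phosphatidylserine receptors Timd4, Havcr1 and Adgrb1 were listed at 0 in all 6 libraries. Ordered by level among the 20 receptors including the TAM genes, Mertk ranked 11th in the WT and 10th in the KO arm. In the KO arm its neighbour above was Stab1 at 2.102 FPKM, from which it did not differ beyond the spread, and its neighbour below was Itgb3.

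**Figure D3:**
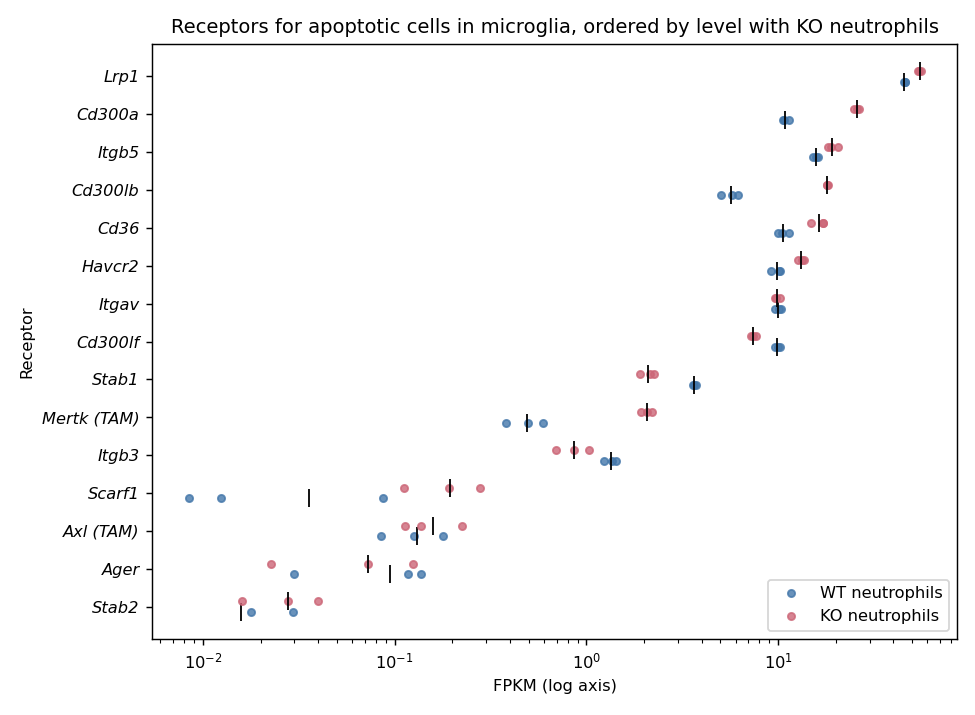
FPKM (log axis) of Mertk, Axl and the other receptors for apoptotic cells whose mean was above 0 in both arms, with a point for each library above 0 and a black tick at the arm mean. Mertk moves from below Itgb3 in the WT arm to beside Stab1 in the KO arm, while Lrp1 has the highest level in both arms.

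The integrin chains that receive Mfge8 did not move as a unit. Itgav, the shared alpha-v chain, had 10.3, 9.60 and 10.1 FPKM in the WT and 10.3, 9.59 and 9.74 FPKM in the KO arm. Itgb5 rose from 15.8 ± 0.478 to 19.2 ± 1.11 FPKM (log2 change 0.27, limma adjusted p = 0.00540). Itgb3 fell from 1.34 ± 0.0997 to 0.862 ± 0.172 FPKM (log2 change -0.33, limma adjusted p = 0.02665). With the replicate number as a block its limma adjusted p was 0.0669, without a filter on low values 0.0687, and it also missed the threshold without WT replicate 1 (0.0721), WT replicate 3 (0.0790), KO replicate 1 (0.0638) or KO replicate 3 (0.0685).

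Among 9 other bridging or TAM-binding proteins, 6 were tested, and 4 rose while 2 fell. Lgals3, galectin-3, which has been described as a Mertk ligand, rose from 270 ± 6.30 to 444 ± 11.0 FPKM (log2 change 0.72, limma adjusted p = 6.03e-06). Anxa1 rose from 19.5 ± 0.363 to 31.1 ± 1.21 FPKM, and Calr, calreticulin, from 152 ± 2.95 to 191 ± 4.44 FPKM. Edil3, a relative of Mfge8 that also bridges phosphatidylserine to integrins, had a log2 change of 0.20 (limma adjusted p = 0.00709). Anxa5 and Thbs1 fell by 0.22 and 0.28 on the log2 scale. Tub and Tulp1, which have been described as TAM ligands, stayed at or under 0.00780 FPKM.

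Of 8 genes of the vitamin K cycle and of the anticoagulant partners of protein S, 6 were tested. Procr, the endothelial protein C receptor, had 67.2, 64.1 and 64.5 FPKM in the WT and 15.3, 15.9 and 16.2 FPKM in the KO arm, a 4.12-fold lower mean (log2 change -1.98, SE 0.0335, limma adjusted p = 2.74e-07). Among the 73 list genes tested this was the largest fitted change. Thbd, thrombomodulin, rose from 7.13 ± 0.155 to 9.41 ± 0.0819 FPKM. F5, coagulation factor V, fell by 0.14 on the log2 scale (limma adjusted p = 0.0276), a call that was lost without WT replicate 1 (0.0640), WT replicate 3 (0.0763), KO replicate 1 (0.0658) or KO replicate 2 (0.0826). Ggcx, the carboxylase that makes Gas6 and protein S active, had 2.57 ± 0.0638 and 3.04 ± 0.239 FPKM and did not pass (limma adjusted p = 0.0583). It passed without KO replicate 1 (0.0439), after quantile normalization (0.0446) and with no variance trend (0.0347). Vkorc1, which recycles vitamin K, did not pass either, and Proc was listed at 0.

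Of 4 genes that release receptors from the cell surface, 3 were tested. Rhbdf2, or iRhom2, which brings Adam17 to the surface, fell from 11.4 ± 0.414 to 7.06 ± 0.412 FPKM (log2 change -0.62, limma adjusted p = 0.000195). Adam17, the protease that sheds Mertk, had 32.3 ± 2.45 and 26.5 ± 2.72 FPKM (log2 change -0.28, limma adjusted p = 0.0418). The Adam17 call was lost without WT replicate 1 (0.108), WT replicate 2 (0.115), KO replicate 2 (0.0616) or KO replicate 3 (0.0741), with no filter (0.101) and with no variance trend (0.0541). Adam10 did not pass, with a wide spread of 21.7 to 41.7 FPKM over the libraries.

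The engulfment list had 15 tested genes of 16, with 4 higher, 6 lower and 5 not passing. The Rac pathway that closes the phagocytic cup was split. Dock1, Elmo2 and Rac1 rose, with log2 changes of 0.49, 0.37 and 0.26, whereas Rhog, which lies upstream of Elmo proteins, fell from 63.1 ± 0.809 to 45.3 ± 0.973 FPKM. Vav1, a Rac exchange factor, fell from 65.8 ± 1.37 to 34.65 ± 1.67 FPKM (log2 change -0.91, limma adjusted p = 1.07e-05). Abca1, the cholesterol exporter induced by liver X receptors, fell from 12.8 ± 0.0779 to 6.22 ± 0.0541 FPKM (log2 change -0.94, limma adjusted p = 4.90e-06). Src fell from 3.87 to 1.72 FPKM.

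Genes through which TAM receptors are known to restrain cytokine signalling were lower in the KO arm where they passed the test. Of 7 in the list, 4 were tested, with 0 higher and 3 lower. Socs3 had 14.1, 14.2 and 12.9 FPKM in the WT and 3.41, 3.31 and 3.60 FPKM in the KO arm (log2 change -1.73, SE 0.0516, limma adjusted p = 2.70e-06). Ifnar2, a chain of the type I interferon receptor, fell from 17.0 ± 0.633 to 12.7 ± 0.516 FPKM. Socs1 stayed at or under 0.110 FPKM in each library.

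The list of transcription factors, mostly nuclear receptors, held 9 genes, of which 8 were tested, with 2 higher, 2 lower and 4 not passing. Rxra, a partner of liver X receptors, rose from 16.0 ± 0.368 to 22.4 ± 0.182 FPKM, and Ppard fell by 0.28 on the log2 scale. The liver X receptors Nr1h3 and Nr1h2, which have been described as inducers of Mertk, did not pass. Nr1h3 had 2.34, 2.23 and 1.62 FPKM in the WT and 2.06, 1.83 and 1.61 FPKM in the KO arm.

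Among 11 genes of eat-me and do-not-eat-me signals, 8 were tested, with 0 higher and 2 lower. Cd47, the do-not-eat-me signal, had 15.7, 21.45 and 22.0 FPKM in the WT and 8.245, 7.52 and 7.28 FPKM in the KO arm (log2 change -1.24, limma adjusted p = 0.000490). Tmem30a, a subunit of the flippases that keep phosphatidylserine inside, fell by 0.14 on the log2 scale. Sirpa, the receptor for Cd47, did not pass, and its WT replicate 3 stood at 77.1 FPKM while the other 5 libraries had 25.8 to 34.0 FPKM.

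All 13 genes of phagosome maturation were tested, with 4 higher, 2 lower and 7 not passing. Cybb, the catalytic subunit of the phagocyte NADPH oxidase, fell from 70.3 ± 1.28 to 20.0 ± 0.653 FPKM (log2 change -1.77, SE 0.0318, limma adjusted p = 3.51e-07). Lamp1, a lysosomal membrane protein, rose from 300.5 ± 6.57 to 376 ± 2.87 FPKM and Pik3c3, the class III lipid kinase, from 9.77 ± 0.356 to 13.1 ± 0.225 FPKM.

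**Figure D4:**
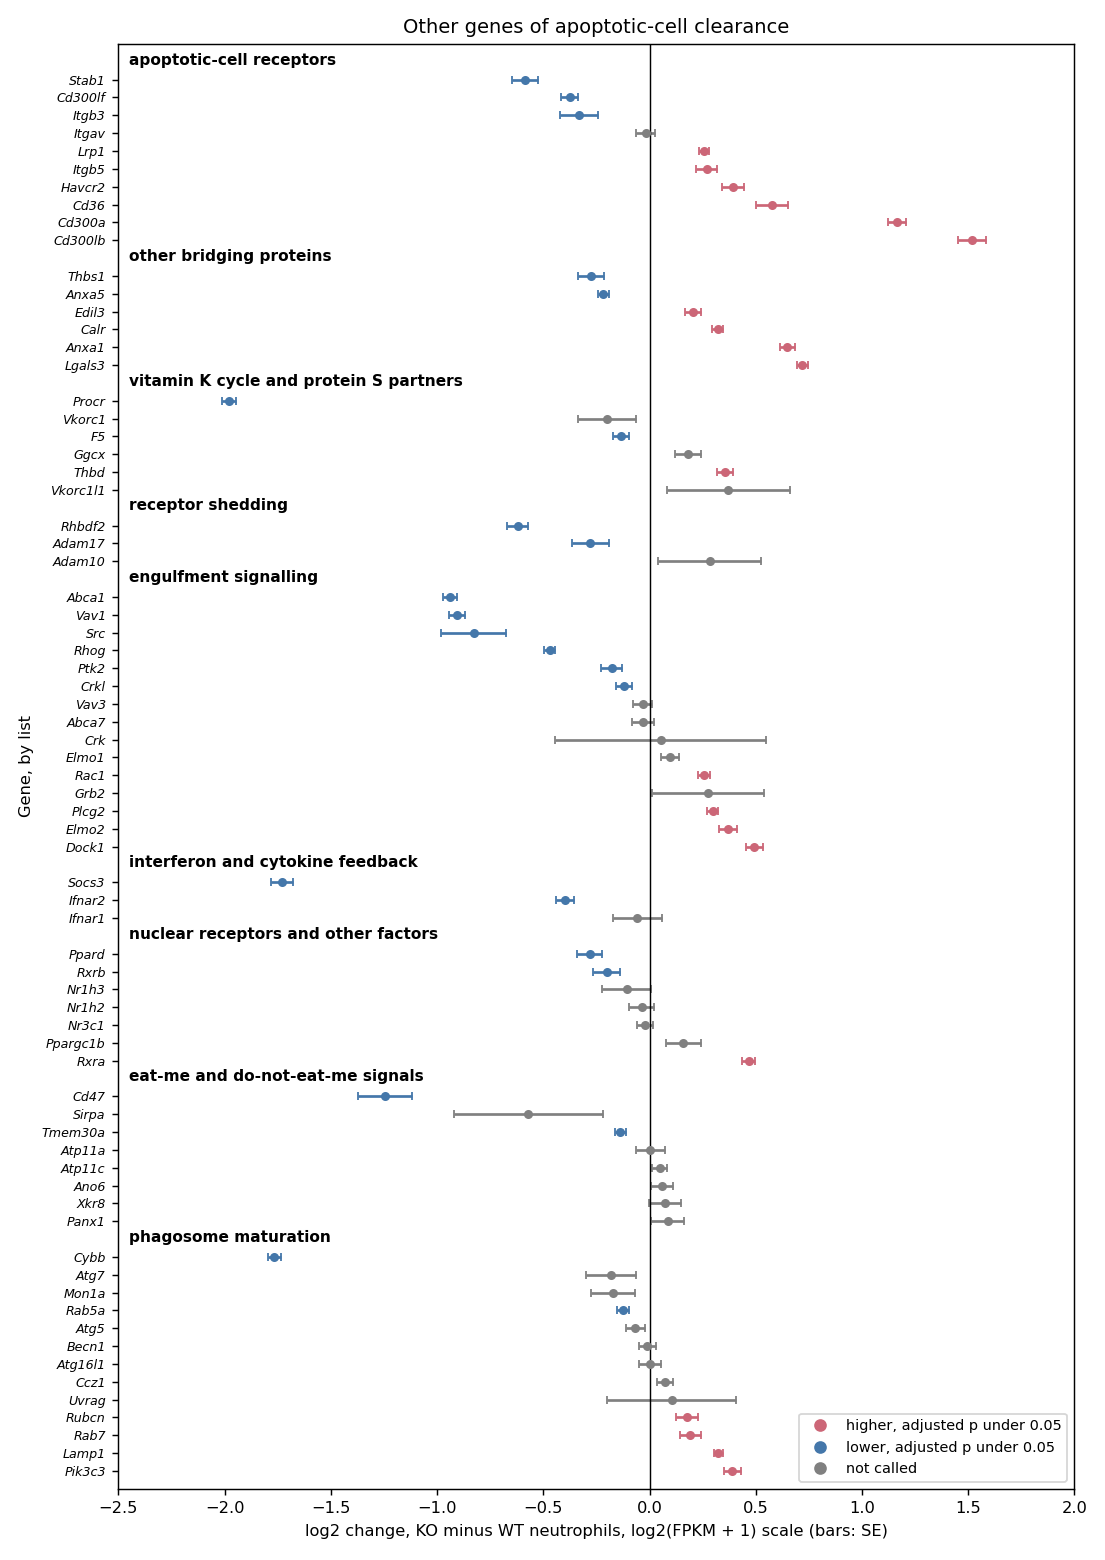
Fitted log2 change, KO minus WT on the log2(FPKM + 1) scale, with its SE, for 71 tested genes of the 9 lists; red and blue points are higher and lower with an adjusted p under 0.05, and grey points are not called. Changes run from -1.98 for Procr to 1.52 for Cd300lb, 6 lists hold called genes of both directions, and the other 3 hold only lower ones.

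The genes whose profile over the 6 libraries was nearest to that of a member were then listed, by the Euclidean distance between profiles of log2(FPKM + 1) centred on their own means. Nearest to Mertk were Tbcc (distance 0.158), a tubulin folding cofactor, Insig1 (0.168), a sterol-sensing regulator of cholesterol synthesis, and Nptxr (0.168), the neuronal pentraxin receptor. Insig1 had 12.4, 12.7 and 12.6 FPKM in the WT and 26.9, 26.8 and 27.5 FPKM in the KO arm. Nearest to Mfge8 were Poll (0.0386), Crebzf (0.0527) and Tirap (0.0559), each with its lowest WT value in replicate 2, as Mfge8 had. These distances describe 6 libraries that share 2 arms. Many genes with a like change on the log2(FPKM + 1) scale would score close to Mertk, and that scale understates the change of Mertk. With a pseudocount of 0.1 its log2 change was 1.89, against 1.05 for Tbcc, 1.10 for Insig1 and 1.07 for Nptxr, so these genes did not share its fold change.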

How the data were processed

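RNA-seq of 6 libraries of sorted microglia was analysed, 3 per neutrophil genotype, grouped by their titles. The authors deposited FPKM values for each library, without pooling. The submitters' processing notes name fastp 0.17.1, HISAT2 2.1.0, DESeq2 1.18.1 and R 3.4.3. The quantification program, build and annotation are not given in the sources used here. FPKM are not counts, so no count test was run.

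Symbols and positions came from GENCODE M21 (GRCm38), where 55154 of the 55335 identifiers were found, and promoters from RefSeq (GRCm38.p6). That annotation and the lengths taken from it may not be those of the authors. Protein sequences were not used here. Depth was inferred from the most common smallest step of FPKM times transcript length among genes with 1 transcript of at least 1000 bases. Only 39.9% to 41.5% of low values were whole within 0.05 of a fragment, against 10% by chance, which is too few to rebuild read counts. The limit of detection was 3 fragments per library on the longest coding transcript and covers counting error only.

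The fit was limma 3.58.1 in R 4.3.3 (lmFit, then eBayes, trend on) of log2(FPKM + 1), KO minus WT, over genes averaging 1 FPKM or more in the 6 libraries, with Benjamini-Hochberg adjustment over the 11395 genes tested and a threshold of 0.05. The procedure was run on simulated data with independent noise and far fewer changed genes than were called here. That run does not measure the error rate in these data. The members and lists were chosen with earlier results of these data known. Named by rule were the members, Cd177, list genes called with an absolute log2 change of at least 1, up to 3 called genes of smallest p per list (in a list without calls, up to 2 of highest mean), and the 3 genes nearest to each fitted member. Other list genes were named for their role after their values were seen. Alternatives were another pseudocount (0.1), no filter or a mean of at least 5 FPKM, a common sum, median centring, quantile normalization, no trend, a replicate block and leaving out each library. A few genes of the lists are not reported here by name.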

Additional observations from a re-analysis of the deposited data

How the results depend on the processing

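The log2 change of Mertk was 1.89 with a pseudocount of 0.1, which by construction enlarges changes of low genes, and 1.14 after quantile normalization, where the cause was not tested. Without each library in turn it was 0.990 to 1.09, and that of Mfge8 0.0054 to 0.116. Mertk was not fitted where a minimum of 5 FPKM was set. Genes called numbered 3763 to 4931 under the alternatives with 6 libraries and 4081 to 4229 with 5, and list genes called 39 to 46 and 38 to 41. Of 789 alternative values, 766 kept their side of the threshold or stayed within the spread or 1.5 times the count. Itgav (0.0041 without WT replicate 1, range -0.0446 to 0.0041 with 5 libraries) and Nr1h2 (0.0142 without KO replicate 3, range -0.0798 to 0.0142), neither of them called, changed sign. The other changes concerned the calls of Adam17, F5, Itgb3 and Ggcx, near the threshold. Replicate numbers did not pair the libraries (correlations of deviations -0.0751, -0.0524 and -0.00518 for same-numbered libraries). With the replicate block 4212 genes were called in place of 4930, with 40 list genes in place of 45, and Itgb3 alone among the named genes lost its call. The depth limits Axl, Pros1, Gas6 and Tyro3.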
